A study of Mus musculus with 9 samples.

Results

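Fezf2, Bcl11b, Tbr1, Foxp2, Crym, Tle4, Etv1, Pcp4 and Sox5 are genes that specify or mark neurons of the deep layers of the cerebral cortex. They were taken by symbol from a matrix of expression values that the authors named CPM, and 9 of 9 were found among its 14444 genes. The matrix held 9 RNA-seq libraries of prefrontal cortex from mice in postnatal weeks 5 to 8, made from total RNA after ribosomal RNA depletion. There were 3 libraries of Shank3 mutants given UNC0642, 3 of Shank3 mutants given saline and 3 of wild-type mice given saline. The protein of Shank3 is a scaffold of excitatory synapses, and the labels name the mutated gene without its allele. UNC0642 inhibits EHMT1 and EHMT2, enzymes that methylate histone H3 at lysine 9, and was injected intraperitoneally at 1 mg per kg daily for 3 days. The comparison of the mutants with and without UNC0642 asks what the inhibitor changed, and the comparison of saline mutants with wild type asks what the mutation changed. The labels do not tie libraries to animals, so a p-value here measures how libraries spread, which may be technical.

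Many projection neurons of the deep layers, though not all, send axons out of the cortex, to the brainstem and spinal cord from the upper of these layers and to the thalamus from the deepest. During development a small set of transcription factors sets these fates against each other: Fezf2 acts upstream of Bcl11b in neurons that project to the spinal cord, and Tbr1 and Sox5 favour the fate of neurons that project to the thalamus. In the adult cortex the same genes, together with Foxp2, Tle4, Etv1, Crym and Pcp4, are used as markers of the deep layers, where most of them stay on. In libraries of whole tissue, fewer cells of a type and less RNA per cell cannot be told apart.

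The libraries carried 2 structures that bear on every comparison below. First, the deposited values had been adjusted: on the log2 scale, the mean of UNC0642 replicate 1 and the saline mutants was the same, gene by gene, as that of UNC0642 replicates 2 and 3 and the wild type. A log2 change of 1 in the saline mutants alone would show in these values as 0.25 against wild type, and a change of 1 under UNC0642 alone as 0.9 against saline. A change of 1 shared by both mutant groups would show as 0.4 between UNC0642 and saline, and one in the saline mutants alone as -0.5 there, so differences from wild type enter the treatment comparison of the deposited values. Second, whole reads could be recovered from the values, 12035098 to 16165483 per library. They are given here as RPM, a gene's reads per 1000000 reads of its library. In these reads the first principal component, with 52% of the variance, divided the libraries into sides of 5 and 4. The mutant side held the saline mutants and UNC0642 replicates 1 and 2, and the wild-type side held the wild-type libraries and the library labelled UNC0642 replicate 3. Of 26 genes at least 8-fold apart between every saline mutant and every wild-type library, that library lay nearer to wild type for 25, UNC0642 replicate 1 for 1 and replicate 2 for 0. Its genotype, a batch and an exchange of samples cannot be told apart here, and every result that rests on it carries this limit. No label names a batch, and leaving out the 9 genes left each library on its side. Saline mutants and wild type share no side, so genotype and division cannot be told apart in that comparison. Shank3 itself had 294 to 319 RPM in UNC0642-treated mutants, 321 to 349 in saline mutants and 295 to 357 in wild type. The allele is not named, so what it does to this level is not known here, and the level does not tell the genotype.

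Promoter windows are shown for 4 of the 9 genes, Pcp4, Tle4, Etv1 and Sox5, the only ones with a matched window free of annotated exon bases. Each window is the 250 bases before an annotated transcript start, from RefSeq on GRCm38.p6, read on the gene's strand, with every CG dinucleotide in capitals. Pcp4 lies at chr16:96467356-96467605 (plus strand), Tle4 at chr19:14598184-14598433 (minus strand), Etv1 at chr12:38779832-38780081 (plus strand) and Sox5 at chr6:143947107-143947356 (minus strand). The windows of Etv1 and Sox5 lie before a start inside the annotated gene, while those of Pcp4 and Tle4 lie outside it, and none of the 4 holds an annotated exon base.
Pcp4: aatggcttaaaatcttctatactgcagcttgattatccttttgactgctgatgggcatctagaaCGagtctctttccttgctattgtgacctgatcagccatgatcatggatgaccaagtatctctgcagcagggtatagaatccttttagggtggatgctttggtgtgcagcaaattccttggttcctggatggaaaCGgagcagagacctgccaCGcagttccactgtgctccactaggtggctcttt
Tle4: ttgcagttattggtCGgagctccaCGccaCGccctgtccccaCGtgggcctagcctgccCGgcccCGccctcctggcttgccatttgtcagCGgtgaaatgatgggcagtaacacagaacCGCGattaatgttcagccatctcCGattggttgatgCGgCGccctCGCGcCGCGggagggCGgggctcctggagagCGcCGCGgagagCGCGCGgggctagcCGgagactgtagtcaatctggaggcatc
Etv1: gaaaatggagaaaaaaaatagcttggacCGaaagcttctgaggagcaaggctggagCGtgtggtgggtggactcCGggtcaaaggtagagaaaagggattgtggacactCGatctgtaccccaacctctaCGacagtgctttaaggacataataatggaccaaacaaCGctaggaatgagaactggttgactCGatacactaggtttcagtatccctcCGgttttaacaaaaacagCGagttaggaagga
Sox5: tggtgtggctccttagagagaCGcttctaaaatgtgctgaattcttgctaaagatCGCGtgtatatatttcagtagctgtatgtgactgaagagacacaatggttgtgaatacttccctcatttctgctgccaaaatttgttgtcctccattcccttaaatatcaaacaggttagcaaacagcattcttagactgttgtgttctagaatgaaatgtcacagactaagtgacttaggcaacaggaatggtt
The Tle4 window held 24 CG dinucleotides, the Etv1 window 9, and the Pcp4 and Sox5 windows 3 each, where the median of 32851 mouse windows of this length was 6. Pcp4 and Tle4, whose levels moved in the same direction under UNC0642 on the mutant side, thus had windows of unlike base composition, with a GC content of 46.8% and 65.2%. Searched on both strands, the SOX letters AACAAT occurred in 9.42% of all windows, the T-box letters AGGTGTGA in 1.12%, the forkhead letters TGTTTAC in 3.17%, the ETS letters CCGGAAGT in 2.88% and the TATA letters TATAAA in 12.4%. None of these 5 was found in the 4 printed windows. RefSeq windows were matched for 7 of the 9 genes, and Tle4 and Etv1 had 2 windows each. The SOX letters stood in the window of Tbr1 and in the second windows of Tle4 and Etv1, and the TATA letters in that second Etv1 window. These windows lie inside their own genes and hold 250, 96 and 241 annotated exon bases of 250.

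By GENCODE M21, Tbr1 lies on chromosome 2, Foxp2 and Sox5 on 6, Crym on 7, Bcl11b and Etv1 on 12, Fezf2 on 14, Pcp4 on 16 and Tle4 on 19. All 9 genes were read in every library, from 132 reads for Foxp2 in saline replicate 1 to 3327 reads for Pcp4 in UNC0642 replicate 2. At these depths counting alone gives an error of 8.7% for that Foxp2 value and 1.73% for that Pcp4 value. In RPM per kilobase of annotated exon, Pcp4, which encodes a small modulator of calmodulin, was the highest of the 9, at 184 ± 56.1 in UNC0642-treated mutants, 172 ± 10.1 in saline mutants and 156 ± 23.6 in wild type (SD, n = 3 each). Crym, which encodes a thyroid-hormone-binding protein of the cytosol, followed at 43.9 ± 11.5, 44.9 ± 1.01 and 27.0 ± 4.9 in these groups. Tbr1, Fezf2, Tle4, Bcl11b, Etv1 and Sox5 came next in that order in all 3 groups, and Foxp2, a forkhead repressor of the neurons that project to the thalamus, was the lowest, at 0.977 ± 0.0364, 0.69 ± 0.0952 and 0.901 ± 0.175. In UNC0642-treated mutants no gene overlapped the next in this order. Bcl11b and Etv1 overlapped in saline mutants, and Crym overlapped Tbr1 and Tle4 overlapped Bcl11b in wild type, so these neighbours did not differ beyond their spread. The order rests on the exon length used: by the longest transcript in place of all exons, 7, 6 and 5 of the 9 genes kept their place in the 3 groups. Exons of Pcp4 overlap those of Igsf5 on the same strand and those of Sox5 overlap Sox5os1 on the opposite strand in GENCODE M21, and how reads there were counted is not given in the sources used here.

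UNC0642-treated mutants were compared with saline mutants first. On the mutant side, where UNC0642 replicates 1 and 2 stand beside all 3 saline libraries, 8 of the 9 genes had a positive log2 difference in recovered reads, where 55.4% of all genes had one. Fezf2, Bcl11b, Tbr1, Foxp2, Crym, Tle4 and Pcp4, 7 of 9, were higher in both UNC0642 libraries than in every saline library, which held for 12.8% of all genes. Sox5, 1 of 9, was lower without overlap, as were 9.53% of all genes, and Etv1 overlapped. No gene of the 14444 passed limma-voom at an adjusted p under 0.05 in this comparison, the 9 included. At an unadjusted p under 0.05, 7 of the 9 were higher and 0 lower, against 3.12% and 2.79% of all genes. That count of higher genes was 2 (Foxp2 and Pcp4, against 2.82% of all genes) without UNC0642 replicate 1. Without saline replicate 1 it was 3 (Fezf2, Foxp2 and Pcp4, against 2.17%). Without each of the others it was 5 to 7, against 2.0% to 4.48% of all genes. With all 9 libraries and the division as a term it was 4 (Fezf2, Bcl11b, Foxp2 and Pcp4, against 2.34% of all genes). That fit takes the treatment difference from the same mutant-side libraries, and the other libraries enter only its spread. In the recovered reads of all libraries without the term the count was 2 (Bcl11b and Foxp2, against 2.46%), and in the deposited values 1 (Crym, against 0.782%). The 9 genes were chosen together and share libraries, so their count is not that of independent genes.

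Fezf2, the zinc-finger factor at the head of the programme for neurons that project to the spinal cord, had 71.3, 62.2 and 43.2 RPM in UNC0642 replicates 1 to 3, against 51.0, 53.1 and 57.8 in saline replicates 1 to 3. UNC0642 replicates 1 and 2 were above all saline libraries and replicate 3, on the other side, was below them, so the groups overlapped. On the mutant side the log2 difference was 0.30 (SE 0.09, limma-voom unadjusted p = 0.0044, adjusted p = 0.83). Bcl11b, the zinc-finger factor of the same neurons, had 68.7, 62.0 and 70.9 RPM under UNC0642, against 57.7, 58.8 and 56.6 under saline. Here all 3 UNC0642 libraries, the one on the other side included, were above all saline libraries. Its mutant-side difference was 0.17 (SE 0.08, limma-voom unadjusted p = 0.046, adjusted p = 0.83).

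Tbr1, the T-box factor of neurons that project to the thalamus, had 140, 136 and 131 RPM in UNC0642 replicates 1 to 3, against 118, 133 and 121 in saline replicates 1 to 3. The third UNC0642 library lay among the saline libraries and the other 2 lay above them. Its mutant-side difference was 0.15 (SE 0.07, limma-voom unadjusted p = 0.04, adjusted p = 0.83). Foxp2 had 15.9, 16.6 and 15.4 RPM under UNC0642, against 10.5, 13.1 and 10.2 under saline, so that all treated libraries were above all saline ones; Foxp2 and Bcl11b were the 2 of 9 for which this held over all 6 libraries, as for 5.8% of all genes. It had the largest mutant-side difference of the 9, 0.53 (SE 0.15, limma-voom unadjusted p = 0.003, adjusted p = 0.83), a fold of 1.44 with a 95% interval of 0.21 to 0.85 in log2. Tle4, a corepressor of the Groucho family, had 71.0, 71.4 and 65.1 RPM under UNC0642, against 51.6, 68.2 and 57.6 under saline. Only UNC0642 replicate 3 among the treated libraries lay below saline replicate 2, and the other saline libraries were below all treated ones. Tle4 differed by 0.27 on the mutant side (SE 0.1, limma-voom unadjusted p = 0.017, adjusted p = 0.83).

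Pcp4 had 236, 206 and 125 RPM in UNC0642 replicates 1 to 3, against 168, 173 and 188 in saline replicates 1 to 3. Of all 9 libraries UNC0642 replicate 1 held the most Pcp4 and UNC0642 replicate 3 the least. On the mutant side its difference was 0.32 (SE 0.07, limma-voom unadjusted p = 0.00058, adjusted p = 0.78). Crym had 180, 161 and 105 RPM under UNC0642, against 148, 155 and 154 under saline. Again replicates 1 and 2 were above every saline library and replicate 3 was far below them, and the 3 saline values were close together. Crym differed by 0.16 on the mutant side (SE 0.06, limma-voom unadjusted p = 0.031, adjusted p = 0.83).

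Etv1, an ETS factor of deep-layer projection neurons, had 96.0, 93.5 and 77.7 RPM under UNC0642, against 86.4, 79.5 and 106 under saline. Its groups overlapped on both scales, and the mutant-side difference of 0.07 had a 95% interval of -0.14 to 0.29. Sox5, an SRY-related factor that controls the timing of deep-layer fates, had 34.6, 32.7 and 43.4 RPM under UNC0642, against 35.4, 37.9 and 36.2 under saline. The 2 treated libraries of the mutant side were just below the saline ones and the third was above them. Sox5 differed by -0.12 on the mutant side, with an interval of -0.32 to 0.07.

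**Figure D1:**
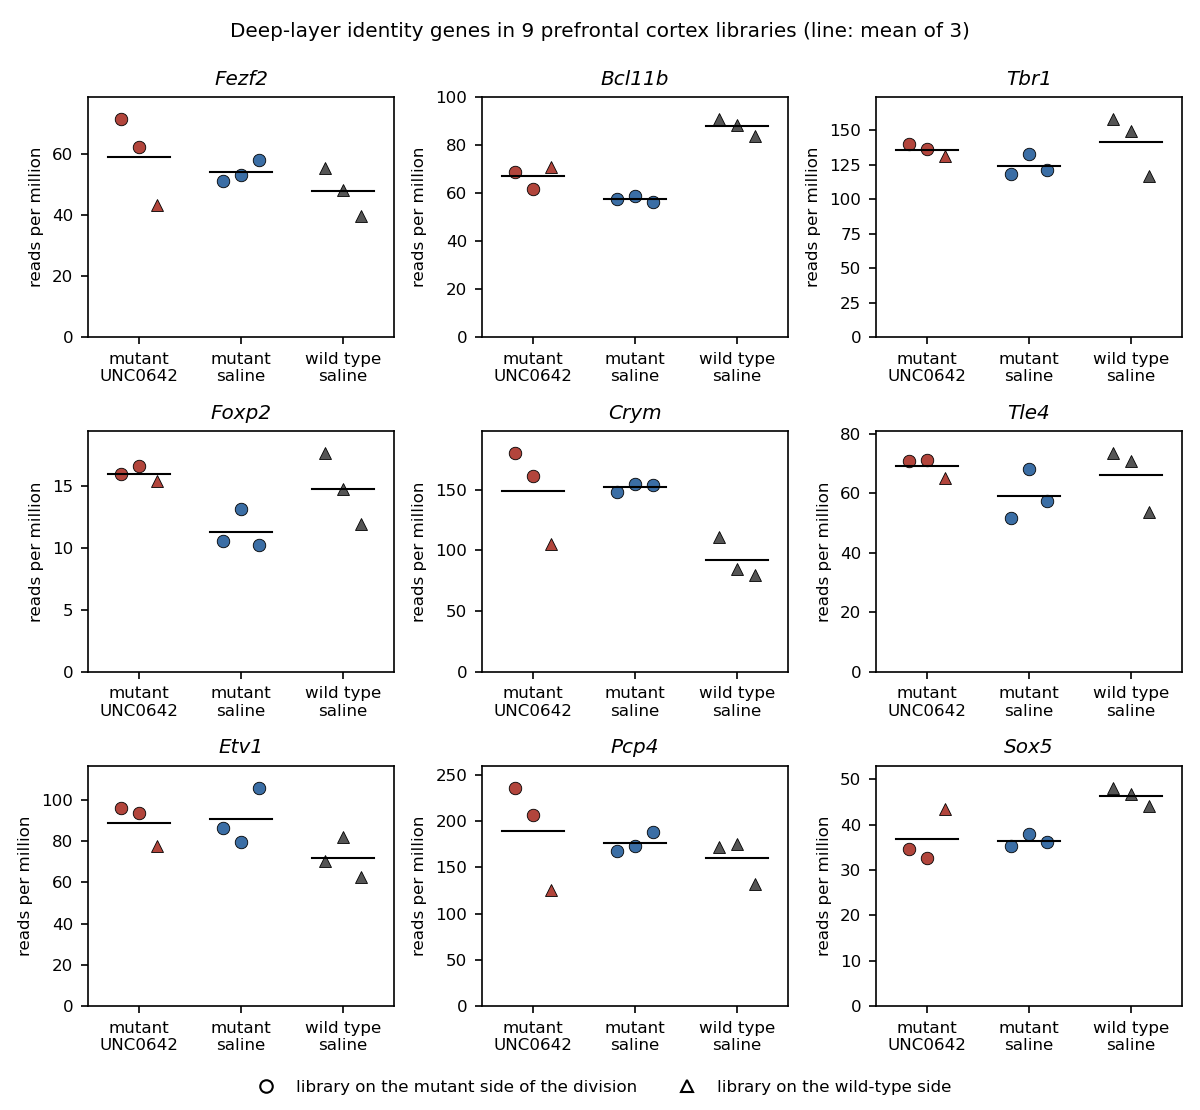
Recovered RPM (y axis, from 0) of each of the 9 genes in UNC0642-treated mutant, saline mutant and wild-type libraries (x axis, 3 libraries each); a point is a library, the line is the mean of 3, circles are libraries of the mutant side and triangles those of the wild-type side. Foxp2 lies at 15.4 to 16.6 in UNC0642-treated mutants and at 10.2 to 13.1 in saline mutants, while Pcp4 and Crym differ within the treated group by side.

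In the deposited values, with all 9 libraries, the treatment difference was smaller in size than on the mutant side for 6 of the 9 genes, and the groups overlapped for 8 of them. Crym, at 146, 198 and 129 in UNC0642 replicates 1 to 3 and 121, 126 and 126 in saline replicates 1 to 3, was the only 1 of the 9 without overlap, where 3.17% of all genes were higher in this way. Its log2 difference was 0.32 (SE 0.14, limma adjusted p = 1, unadjusted p = 0.041). In recovered reads Crym differed by 0.75 in saline mutants and 0.68 in UNC0642-treated mutants from wild type. Between the mutant groups it differed by -0.07 over all libraries and by 0.16 on the mutant side. A difference shared by both mutant groups shows in the deposited values as 0.4 of its size. The part of such a difference in the 0.32 of Crym was not tested. In the deposited values Foxp2 differed by 0.28 (SE 0.16), Fezf2 by 0.25 (SE 0.14), Pcp4 by 0.21 (SE 0.16) and Tle4 by 0.15 (SE 0.13). Bcl11b, positive on the mutant side, differed by -0.04 (SE 0.11) in the deposited values and by 0.07 without UNC0642 replicate 2. Of the 9, 7 had a positive difference, against 51.0% of all genes, and limma called 0 of 14444 genes at an adjusted p under 0.05 and 281, or 1.95%, at an unadjusted p under 0.05. When the recovered reads of all 9 libraries were compared without regard to side, Foxp2 differed by 0.50 and Bcl11b by 0.21, while Fezf2, Pcp4 and Crym differed by 0.09, 0.05 and -0.07. The higher level of Fezf2, Pcp4 and Crym under UNC0642 in recovered reads was thus seen between libraries of the mutant side and not over all 6 mutant libraries.

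**Figure D2:**
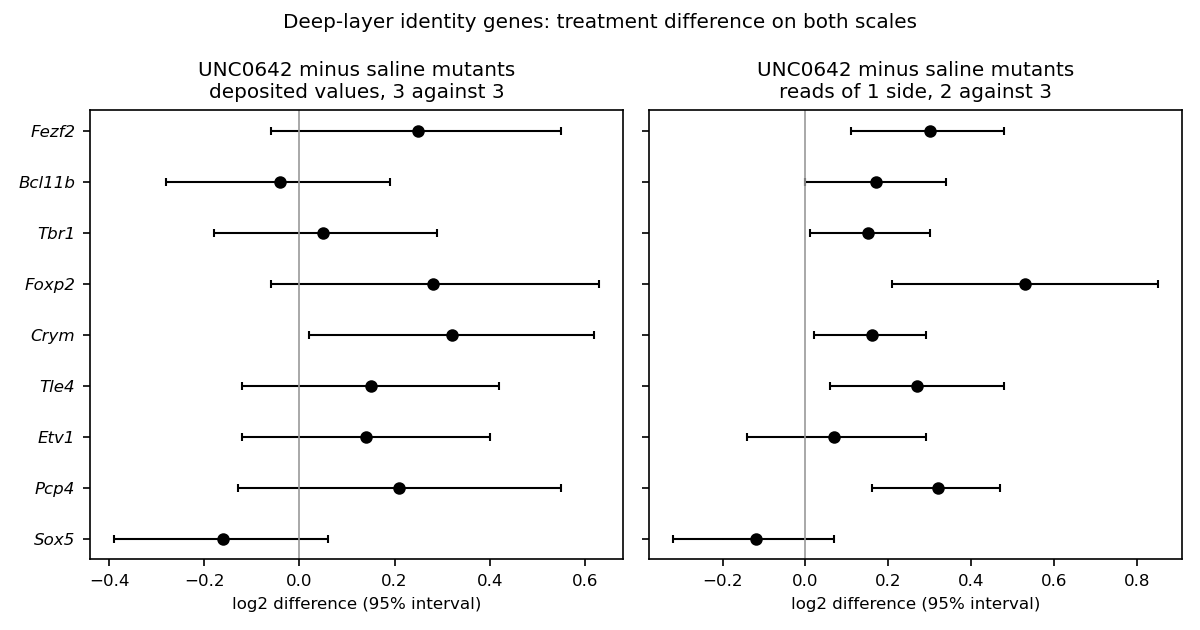
Log2 difference of UNC0642-treated minus saline mutants (x axis) for each gene (y axis), in the deposited values of 3 against 3 libraries (left) and in the recovered reads of 2 against 3 libraries of the mutant side (right); points are limma estimates and bars their 95% intervals. Foxp2 lies at 0.28 and 0.53, Pcp4 at 0.21 and 0.32 and Bcl11b at -0.04 and 0.17.

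Genes of the same layers were then set beside the 9. Of 34 further deep-layer markers, 27 had a positive difference under UNC0642 on the mutant side, with a median of 0.19 where all genes had 0.017. In this list limma-voom called 0 at an adjusted p under 0.05 and found 6 higher and 0 lower at an unadjusted p under 0.05. Rprm, an inhibitor of the cell cycle that marks the deepest layer, differed by 0.47 (SE 0.11), the synaptotagmin gene Syt6 by 0.37 (SE 0.11) and Nxph3, which encodes a secreted ligand of neurexins, by 0.42 (SE 0.12). The 22 upper-layer markers lay the other way: 20 had a negative difference, with a median of -0.12, 0 were called and 5 were lower at an unadjusted p under 0.05. Otof, a calcium sensor of exocytosis, differed by -0.41 (SE 0.1), the homeobox factor Cux2 by -0.34 (SE 0.09) and Rasgrf2, an exchange factor of Ras, by -0.21 (SE 0.08). In the deposited values, which derive from the same reads, 27 of 34 further deep-layer markers were positive (median 0.14), as were 51.0% of all genes. There 18 of 22 upper-layer markers were negative (median -0.15). In the recovered reads of all libraries 26 of the 34 were positive (median 0.13) and 16 of the 22 negative (median -0.08). The difference between the lists was not tested, and both were chosen with earlier results of these data known.

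Regulators and partners of layer specification showed no common direction on the mutant side, with 15 of 31 measured positive and a median of -0.01. The netrin receptor gene Dcc differed by 0.34 (SE 0.1) and the neuronal factor Neurod2 by 0.19 (SE 0.07). A list for excitatory neurons in general, which also holds Tbr1 and Neurod2, had 8 of 14 positive and a median of 0.05. In it 0 were called and 3 were higher, Neurod2 among them, and 2 lower at an unadjusted p under 0.05. Camk2a, the kinase of their synapses, differed by -0.25 (SE 0.05).

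**Figure D3:**
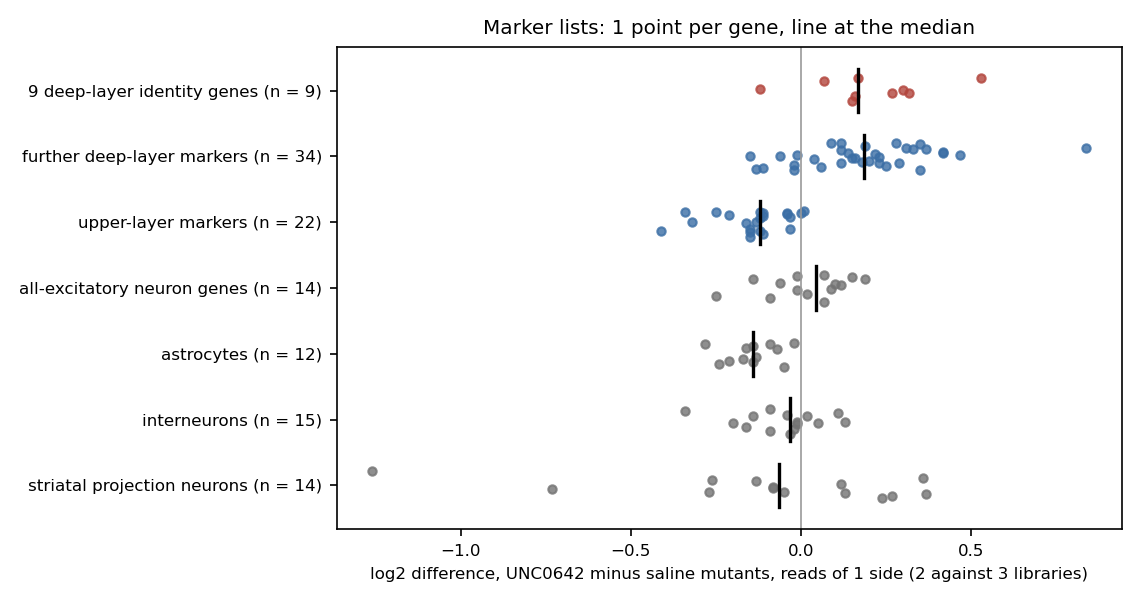
Log2 difference of UNC0642-treated minus saline mutants in recovered reads of the mutant side (x axis, 2 against 3 libraries) for the genes of 7 lists (y axis); a point is a gene and the black line the median of its list. The medians of the 9 genes (0.17) and of the further deep-layer markers (0.19) lie right of 0, and those of the upper-layer markers (-0.12) and astrocyte markers (-0.14) left of it.

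Markers of other cells moved beside these genes. The astrocyte markers were lower under UNC0642 on the mutant side for 12 of 12 genes (median -0.14, 5 at an unadjusted p under 0.05, 0 called), with a summed level of 4480 and 4890 RPM in UNC0642 replicates 1 and 2, against 5040 to 5470 in the saline libraries. Markers of mature oligodendrocytes were higher for 10 of 10 genes with a median of 0.53, but their summed level spread widely, from 2600 to 4970 in those UNC0642 libraries and from 1530 to 3520 in the saline libraries. Striatal projection neurons also express Bcl11b, Foxp2 and Crym. Of 20 striatal markers 14 were measured and 6 were positive, with 2 higher and 3 lower at an unadjusted p under 0.05. Their sums were 697 and 707 RPM under UNC0642 on the mutant side and 721 to 747 under saline. Over all libraries single markers ranged widely, with Drd2 at 0.371 to 3.51, Adora2a at 2.25 to 3.86 and Adcy5, the highest, at 172 to 205 RPM. The dopamine receptor gene Drd1 stood at 12.1 to 18.6 RPM over all libraries and differed by 0.37 (SE 0.16) on the mutant side, and Ppp1r1b, which encodes a phosphatase inhibitor of these cells, stood at 47.0 to 85.2 RPM. No measured marker named here was at 0 in any library, and Six3 and Isl1 were not among the genes measured. The part of any of these cells in the values of the 9 genes was not tested.

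Over the whole set, the summed level of the 9 genes was 914, 841 and 677 RPM in UNC0642 replicates 1 to 3, 728, 771 and 788 in saline replicates 1 to 3 and 797, 760 and 624 in wild-type replicates 1 to 3. The 2 lowest libraries, wild-type replicate 3 and UNC0642 replicate 3, were also those with the most astrocyte markers, at 7990 and 7580 RPM where the other 7 lay at 4480 to 6030. Within the treated and the wild-type groups the libraries spread by more than the group medians, 841, 771 and 760, differed.

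**Figure D4:**
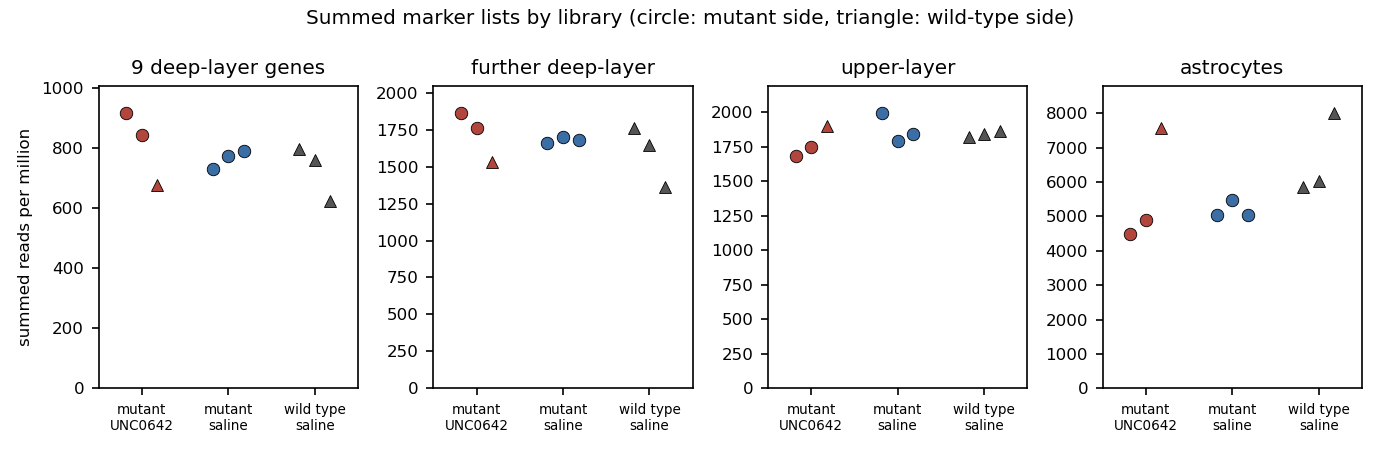
Summed RPM (y axes, from 0) of the 9 genes, the further deep-layer markers, the upper-layer markers and the astrocyte markers in UNC0642-treated mutant, saline mutant and wild-type libraries (x axis); a point is a library, circles the mutant side and triangles the wild-type side. UNC0642 replicates 1 and 2 hold the highest sums of the 9 genes, 914 and 841, and UNC0642 replicate 3 and wild-type replicate 3 the lowest, 677 and 624.

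Saline mutants were compared with wild type next. In the recovered reads Crym and Bcl11b stood apart in opposite directions. Crym had 148, 155 and 154 RPM in saline replicates 1 to 3, against 111, 84.9 and 79.5 in wild-type replicates 1 to 3. All saline libraries were above all wild-type ones, as for 20.2% of all genes, with a log2 difference of 0.75 (SE 0.17, a fold of 1.68, limma-voom adjusted p = 0.023). Bcl11b had 57.7, 58.8 and 56.6 RPM in saline mutants, against 91.0, 88.5 and 84.1 in wild type, and differed by -0.61 (SE 0.08, a fold of 0.657, limma-voom adjusted p = 0.0041). Sox5 was lower in saline mutants too, at 35.4, 37.9 and 36.2 RPM, against 48.2, 46.8 and 44.1 in wild type (log2 difference -0.34, SE 0.11, limma-voom adjusted p = 0.053). These 2 genes lay below wild type in all saline libraries, which held for 20.5% of all genes. Markers of other cells differed in the same reads: those of mature oligodendrocytes were negative for 10 of 10 genes (median -0.73, 1 called), with sums of 1530 to 3520 RPM in saline mutants and 2990 to 4960 in wild type. Astrocyte markers were negative for 10 of 12 (median -0.20, 0 called), with sums of 5040 to 5470 in saline mutants and 5850 to 7990 in wild type, and meningeal markers were positive for 12 of 12 (median 0.44, 0 called), with sums of 192 to 225 in saline mutants and 140 to 235 in wild type. The part of these cells in the values of the 9 genes was not tested.

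That comparison runs along the division, and 1725 genes, 11.9%, were called in it. Of the 9 genes, 1 was called higher and 1 lower, where 5.13% and 6.81% of all genes were. The library labelled UNC0642 replicate 3 had 105 RPM of Crym, inside the wild-type range of 79.5 to 111. Its Bcl11b, at 70.9 RPM, was below all 3 wild-type libraries and above the other 5 mutant libraries. For Sox5 it stood at 43.4, just below the lowest wild-type library, 44.1. With the division as a term, which rests on that library alone, the differences were 0.06 (SE 0.18) for Crym, -0.48 (SE 0.13, unadjusted p = 0.002) for Bcl11b and 0.03 (SE 0.14) for Sox5, and limma-voom called 0 genes, with 711 or 4.92% at an unadjusted p under 0.05. Of the 9, Bcl11b, Fezf2 and Pcp4 were lower at that threshold, 3 of 9 against 2.16% of all genes. In this fit the term is set by UNC0642 replicates 1 and 2 against replicate 3. The difference from wild type thus contains the mutant-side treatment difference with its sign reversed, and the count is not separate from that comparison. Fezf2 was at -0.42 (SE 0.2, unadjusted p = 0.048) and Pcp4 at -0.66 (SE 0.18, unadjusted p = 0.0026) with the term, where both were positive without it, and their limma-voom adjusted p-values with it were 0.97 and 0.64.

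The other 6 genes overlapped between saline mutants and wild type in recovered reads. Etv1 was at 86.4, 79.5 and 106 RPM in saline mutants, against 70.6, 82.0 and 62.8 in wild type, with 1 saline library inside the wild-type range. Foxp2 was at 10.5, 13.1 and 10.2, against 17.6, 14.7 and 11.9, with saline replicate 2 above the lowest wild-type library. Their log2 differences were 0.33 (SE 0.13) and -0.37 (SE 0.16), with limma-voom adjusted p-values of 0.095 and 0.14. Fezf2, Tbr1, Tle4 and Pcp4 overlapped between the groups, with differences of 0.19, -0.18, -0.15 and 0.15. In the deposited values all 9 genes lay within 0.22 of 0 in log2 and limma called 0 of 14444 genes, with 19 or 0.132% at an unadjusted p under 0.05. Bcl11b, at 66.1, 67.3 and 65.2 in saline mutants against 82.1, 78.0 and 72.4 in wild type, was the only one of the 9 whose groups did not overlap there (lower in 1.7% of all genes), with a log2 difference of -0.22 (SE 0.11, limma adjusted p = 1).

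UNC0642-treated mutants were last compared with wild type, a comparison that shares libraries with both of the others. In the deposited values Crym had the largest difference, 0.47 (SE 0.14, limma adjusted p = 0.58, unadjusted p = 0.0052), with 146, 198 and 129 in UNC0642-treated mutants against 140, 105 and 96.1 in wild type. Wild-type replicate 1 lay above 1 treated library, so the groups overlapped. Bcl11b differed by -0.27 (SE 0.11) and Sox5 by -0.26 (SE 0.11), both with a limma adjusted p of 0.58. Sox5 stood at 37.7, 30.2 and 39.9 in treated mutants, against 45.6, 43.4 and 39.9 in wild type, without overlap before rounding, as for 5.84% of all genes. At an unadjusted p under 0.05 the 9 genes gave 1 higher and 2 lower, where 3.88% and 4.69% of all genes were, and limma called 0 of 14444 genes at an adjusted p under 0.05.

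In recovered reads Bcl11b and Sox5 were lower in all 3 treated libraries than in all wild-type libraries, as were 7.62% of all genes. Their differences of -0.39 (SE 0.08) and -0.34 (SE 0.11) had limma-voom adjusted p-values of 0.13 and 0.16. That fit called 8 genes in all, or 0.0554%, and none of the 9. Crym differed by 0.68 (SE 0.17, limma-voom adjusted p = 0.13) and Etv1 by 0.31 (SE 0.13, adjusted p = 0.22). Within the wild-type side the library labelled UNC0642 replicate 3 stands alone against the 3 wild-type libraries, so its log2 differences are those of 1 library with no replicate: -0.31 for Bcl11b, -0.34 for Pcp4, -0.13 for Fezf2 and 0.22 for Crym.

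Co-variation across the 9 libraries was examined in the deposited log2 values for 36 pairs of genes. Pearson's r was positive for 29 pairs and passed an adjusted p under 0.05 over the 36 pairs, by exact two-sided permutation of the libraries, for 5. Fezf2 and Pcp4 were the closest pair, with r = 0.94 (exact permutation p = 0.00021, adjusted p = 0.0043) and rho = 0.97 (p = 0.00017, adjusted p = 0.0061, both exact permutation), and r was 0.91 without the 2 libraries farthest from the median, UNC0642 replicate 2 and wild-type replicate 3. Among all 14443 other genes Pcp4 ranked 15 by its r with Fezf2, and Fezf2 ranked 11 by its r with Pcp4. Beside the closest of the 9, the share of all genes at least as close was 0.0969% for Foxp2, 0.145% for Tle4 and 0.325% for Tbr1. It was 2.66% for Bcl11b, 5.3% for Sox5, 6.87% for Crym and 10.2% for Etv1, so many other genes were as close to these. The share of positive or passing pairs among all genes is not given here.

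Tbr1, Tle4 and Foxp2, all marking neurons that project to the thalamus, formed a second set of close pairs. Foxp2 and Tle4 had r = 0.91 (exact permutation p = 0.00037, adjusted p = 0.0044) and rho = 0.95 (exact permutation p = 0.00035, adjusted p = 0.0063), and r = 0.85 without the 2 farthest libraries. Tbr1 and Tle4 had r = 0.90 (exact permutation p = 0.00024, adjusted p = 0.0043) and rho = 0.92 (exact permutation p = 0.0013, adjusted p = 0.016), and r = 0.86 likewise. Tbr1 and Foxp2 had r = 0.82 (exact permutation p = 0.0067, adjusted p = 0.048) and rho = 0.80 (exact permutation p = 0.014, adjusted p = 0.1), and r = 0.68 likewise. Fezf2 and Crym passed by r = 0.82 (exact permutation p = 0.0039, adjusted p = 0.035) but not by rho = 0.75 (exact permutation p = 0.025, adjusted p = 0.12), and their r was 0.60 without UNC0642 replicate 2 and wild-type replicate 3.

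Bcl11b and Sox5 were each the closest of the 9 to the other. Their r of 0.77 (exact permutation p = 0.014, adjusted p = 0.082) and rho of 0.57 (exact permutation p = 0.12, adjusted p = 0.24) did not pass, and r was 0.13 without UNC0642 replicate 2 and wild-type replicate 1, so the relation rests on those libraries. Sox5 and Crym had the most negative value, r = -0.69 (exact permutation p = 0.063, adjusted p = 0.14) with rho = -0.42 (exact permutation p = 0.27, adjusted p = 0.42), and r = -0.22 without 2 libraries. Foxp2 and Crym passed by rho = 0.87 (exact permutation p = 0.0045, adjusted p = 0.04) but not by r = 0.64 (exact permutation p = 0.057, adjusted p = 0.14). Etv1 passed with none of the other 8 genes by either measure.

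Because recovered reads divide the libraries into sides of 5 and 4, too few for a correlation within either, r was also described after the mean of each side was taken out of the recovered log2 RPM. Fezf2 with Pcp4 then had r = 0.91, Tbr1 with Tle4 0.92, Foxp2 with Tle4 0.90 and Tbr1 with Foxp2 0.82. Of the pairs that passed in the deposited values, Tbr1 with Foxp2 (exact permutation, adjusted p = 0.066) and Fezf2 with Crym (r = 0.70, exact permutation, adjusted p = 0.12) did not pass here, while Fezf2 with Tbr1 and Bcl11b with Pcp4 did. Bcl11b changed partner: its r was 0.17 with Sox5 and 0.86 with Pcp4. Without the adjustment and with nothing taken out, 24 of the 36 pairs were positive. The libraries share depth and cell makeup over all 9 genes, and neither was taken out. Taking out side means, like the adjustment of the deposited values, ties the values of the libraries to each other. The libraries are then not freely exchangeable, so the permutation p-values on both scales are approximate. Exact means here only that all orders of the libraries were used.

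**Figure D5:**
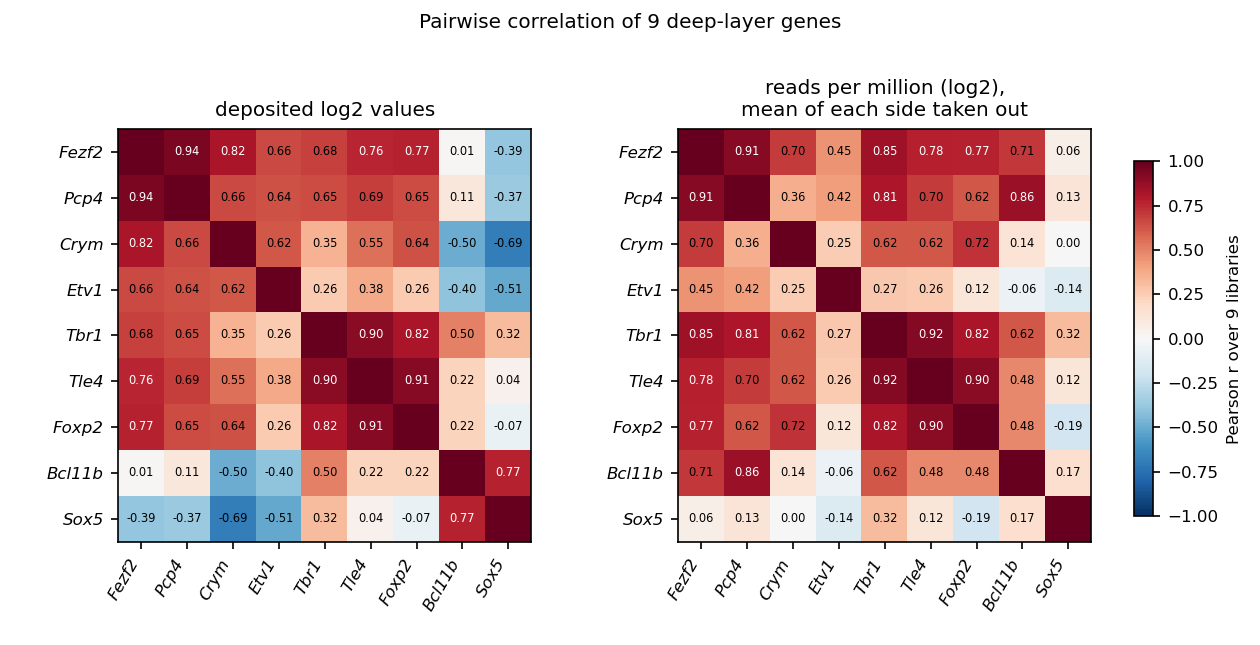
Pearson's r over 9 libraries for each pair of the 9 genes (rows and columns in the same order, colour from -1 to 1), in the deposited log2 values (left) and in recovered log2 RPM with the mean of each side taken out (right). Fezf2 with Pcp4 (0.94 and 0.91) and Tle4 with Foxp2 (0.91 and 0.90) are high in both panels, and Bcl11b with Sox5 is 0.77 on the left and 0.17 on the right.

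By library, the deposited values of 6 of the 9 genes, Fezf2, Tbr1, Foxp2, Crym, Tle4 and Etv1, were lowest in wild-type replicate 3. UNC0642 replicate 2 had the highest Fezf2, Crym, Etv1 and Pcp4 and the lowest Bcl11b and Sox5, and wild-type replicate 1 had the highest Bcl11b, Tbr1 and Sox5. In RPM the extremes lay elsewhere in part: UNC0642 replicate 1 had the highest Fezf2, Crym and Pcp4, saline replicate 3 the highest Etv1 and the lowest Bcl11b and Foxp2, and wild-type replicate 3 the lowest Fezf2, Tbr1, Crym and Etv1. The genes outside the set most like its mean profile over the 9 libraries were Ublcp1 (r = 0.971), Jazf1 (r = 0.967), Anxa7 (r = 0.963), Dcbld1 (r = 0.959) and Mybph (r = 0.957) in the deposited values. In recovered reads with side means taken out they were Dusp14 (r = 0.981), Adora1 (r = 0.965), Elavl4 (r = 0.964), Rap1gds1 (r = 0.963) and Tpd52 (r = 0.957), so the 2 scales named different genes.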

How the data were processed

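Per the labels' protocols, Trizol-extracted total RNA went through a ribosomal RNA depletion and a stranded library kit. The tools were HTSeq, TopHat2 and cutadapt and the build was mm9, per the submitters' processing notes; the versions, strand setting and normalization were not given in the sources used here. Each gene has a deposited signal that the authors named CPM, and the files of single libraries matched the matrix in 9 of 9 cases. They were not plain CPM: no value was 0, and of 255 ways to divide the libraries into 2 sets 1 gave equal mean log2 values for every gene, to within 2.5e-09. Whole reads were recovered for 14444 of 14444 genes by finding the 1 shift between these sets at which all 9 values became whole reads above a mean prior of 3 reads; the largest distance from a whole read was 0.00065 (tolerance 0.02).

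Differences were fitted with limma 3.58.1 in R 4.3.3, with an intensity trend, on log2(deposited value + 0.5), which understates the change of low genes, over all genes and 9 libraries with group as the only term. Benjamini-Hochberg adjusted p under 0.05 was the threshold, and no gene was filtered out. Recovered reads were fitted with limma-voom, with library totals as sizes, as an alternative. All p-values outside the co-variation come from these fits. The fitting and recovery steps were tested on simulated data. Levels per kilobase used GENCODE M21 exons, and since that annotation is not on mm9 gene positions are not given; promoter windows are RefSeq's on GRCm38.p6. Replicates of a group differed beyond sampling noise, with a chi-square of 4.59 to 23.9 per degree of freedom, so each was counted as 1 sample; this does not tell separate animals from separate preparations of 1 animal.

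The 9 genes, the lists and the tests were chosen with earlier results of these data known. Other genes were named by rule: up to 3 of smallest p in a list, and the 5 of highest r; 1 gene under this rule is not reported here. Camk2a falls under the same rule. Drd1, Drd2, Adora2a, Ppp1r1b, Adcy5, Six3 and Isl1 were named as striatal markers, with Drd1, Ppp1r1b and Adcy5 named after their values were seen. Replicate numbers did not pair the libraries. Alternatives were other pseudocounts, a filter, median-of-ratios factors, 2 groups only, a replicate block, leaving out each library and the recovered reads with and without the division. Python 3.11.15 was used with pandas 2.3.3, numpy 2.4.6, matplotlib 3.10.9 and scipy 1.17.1.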

Additional observations from a re-analysis of the deposited data

How the results depend on the processing

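Over all alternatives the 9 genes gave 522 values, of which 488 kept both their direction and their side of the threshold, 2 passed it anew (Crym at 0.75 and Bcl11b at -0.61 between saline mutants and wild type, in recovered reads) and 32 turned their direction; the cause was not tested unless named. No gene was called between UNC0642-treated and saline mutants in the deposited values.

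Between UNC0642-treated and saline mutants, Bcl11b lay between -0.19 and 0.07 with a library left out (0.07 without UNC0642 replicate 2), and Tbr1 between -0.01 (without UNC0642 replicate 1) and 0.10. In recovered reads, where the adjustment between sets is absent, Bcl11b was 0.21, Crym -0.07, Etv1 -0.02 and Sox5 0.01 over all libraries, and Bcl11b was 0.17 both with a term for the division and on the mutant side. Both of these fits take the difference from the same mutant-side libraries, so their equal value is fixed by the design. On the mutant side, where the count of genes called was 0 to 2 with a library left out, Etv1 lay between -0.02 (without saline replicate 2) and 0.20; Crym was 0.08 and Pcp4 0.22 without UNC0642 replicate 1.

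Between saline mutants and wild type, 5 genes were called with only the 2 groups fitted and 1725 in recovered reads, in which Fezf2 was 0.19 and Pcp4 0.15; with the division as a term Sox5 was 0.03, Fezf2 -0.42 and Pcp4 -0.66. With a library left out, Fezf2 lay between -0.19 and 0.08, Tbr1 between -0.22 and 0.03, Foxp2 between -0.22 and 0.08 and Tle4 between -0.20 and 0.05, each lowest without wild-type replicate 3 and highest without wild-type replicate 1. Etv1 lay between -0.04 (without saline replicate 3) and 0.18.

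Between UNC0642-treated mutants and wild type, 8 genes were called in recovered reads, 3 once the division was a term, 2 on the wild-type side and 0 to 4 with a library left out, the most without UNC0642 replicate 1. With the division as a term and on the wild-type side, Fezf2 was -0.13, Tle4 -0.01 and Pcp4 -0.34. Both fits take these values from UNC0642 replicate 3 alone against the wild-type libraries, so their equality is fixed by the design. With a library left out, Tbr1 lay between -0.17 and 0.08, Tle4 between -0.05 and 0.20 and Pcp4 between -0.04 and 0.34, the turned sign coming without wild-type replicate 1 for Tbr1 and without wild-type replicate 3 for Tle4 and Pcp4. Of the 9 genes in wild type 5 kept their place by level with the longest transcript.

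With the replicate number as a block, 0 genes were called in each comparison; deviations of libraries that share a number correlated at -0.19 to 0.31, so the numbers were not read as pairing. Pairs of genes past the threshold by r numbered 5 in the deposited values, 5 with side means out, 4 with group means out and 7 in plain RPM. Counting error alone, 8.7% at the lowest Foxp2 value, limits how small a difference of that gene can be seen in 1 library.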

Other observations

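Relatives of the 9 genes, paralogs from the same families, did not share the direction of the 9 under UNC0642. On the mutant side 11 of 15 measured had a negative difference (median -0.09, 0 called, 0 at an unadjusted p under 0.05 in either direction), and in the deposited values 11 of 15 did (median -0.08). Sox6, the relative of Sox5 that is expressed in interneurons and progenitors, differed by -0.22 (SE 0.11) on the mutant side, Sox4 by -0.23 (SE 0.12) and the Groucho relative Tle2 by -0.18 (SE 0.11). The summed level of the 15 genes was 1030, 985 and 1020 RPM in UNC0642 replicates 1 to 3, 1030, 1050 and 1010 in saline replicates 1 to 3 and 1030, 1010 and 1050 in wild-type replicates 1 to 3, a narrower relative spread over the libraries than that of the 9 genes.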
